A study of Pogonatum aloides with 7 samples.

Results

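The transcriptomes of stage 2 and stage 1 capsules of the moss Pogonatum aloides were compared, with stage 2 set over stage 1. Both stages are labelled as small capsules of wild type plants, and each was measured in 1 library, so that no difference between them has a replicate check and no test was possible. The same study holds capsules of stage 3 (small), stage 4 (middle-sized) and stage 5 (big) and young gametophytes (labelled seedlings), all wild type and again with 1 library each, and these are used here only to show the levels of the sequences under study elsewhere. How many plants went into a library, when they were collected, whether all libraries came from the same population, and how the stages were defined or ordered is not stated. With 1 library a stage, a difference between stages and a difference between the plants sampled for them cannot be told apart. Expression was listed for 74566 unigenes, transcript sequences put together from the reads themselves, as RPKM (reads divided by the length of the unigene and by the reads of its library). Of these, 39405 (52.8%) had at least 1 RPKM in stage 2 or stage 1 and form the comparison. A unigene was called higher or lower when the ratio of RPKM + 1 was at least 2-fold. This scale understates the difference of low unigenes.

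A moss capsule is the spore-bearing part of the diploid sporophyte, which stays attached to the haploid leafy gametophyte and is fed by it. In the capsule a spore-forming tissue passes through meiosis, the spores lay down a resistant wall, and the surrounding capsule wall, the operculum and the peristome teeth mature. In Polytrichaceae, the family of Pogonatum, the peristome is built of whole cells. An assembly of reads commonly yields several contigs for similar sequences, such as splice forms, alleles or duplicated genes, and gives them a common cluster number. A change of the whole cluster and an exchange between its contigs can look alike when each contig is read on its own.

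The identifiers carry no gene names and no annotation was used, so that functions are not assigned and the labelled organ was not checked against marker genes. Unigenes other than 4 contigs are described by rank, length and level. Of the 74566 unigenes, 21844 were contigs of 11558 clusters and 52722 were single unigenes. Library totals, worked back from the steps between low RPKM values, were 5752394 reads in stage 2 and 5751812 reads in stage 1. At these depths 3 reads on a unigene of 1 kb correspond to 0.522 RPKM in both stages. Where whole reads are given they were recovered in the same way, and exact 95% intervals of read ratios cover counting error only.

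More unigenes were lower than higher in stage 2. By the ratio, 10110 unigenes (25.7% of those compared) were higher, 12881 (32.7%) were lower, and 16414 (41.7%) stayed within 2-fold, so that 58.3% differed in either direction. The 95% counting interval lay wholly beyond 2-fold for 3930 higher (9.97%) and 5013 lower unigenes (12.7%). The median unigene was lower by this scale, with a log2 ratio of −0.23. This shift was −0.10 after a trimmed-mean scaling of stage 2 (TMM), which left 10925 unigenes higher and 12463 lower. In bulk capsules, fewer cells of a type and less RNA per cell cannot be told apart.

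The unigenes within 2-fold carried most of the RNA in both stages. They accounted for 60.5% of the summed RPKM in stage 2 and 60.7% in stage 1. The higher unigenes made up 33.1% of all RPKM in stage 2 and 7.69% in stage 1. The lower unigenes made up 5.83% in stage 2 and 30.9% in stage 1. For both sets the direction of this contrast follows from the rule that called them. Among the 100 most abundant unigenes of each stage 59 were shared, and these 100 held 22.2% of the summed RPKM in stage 2 and 19.0% in stage 1.

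**Figure D1:**
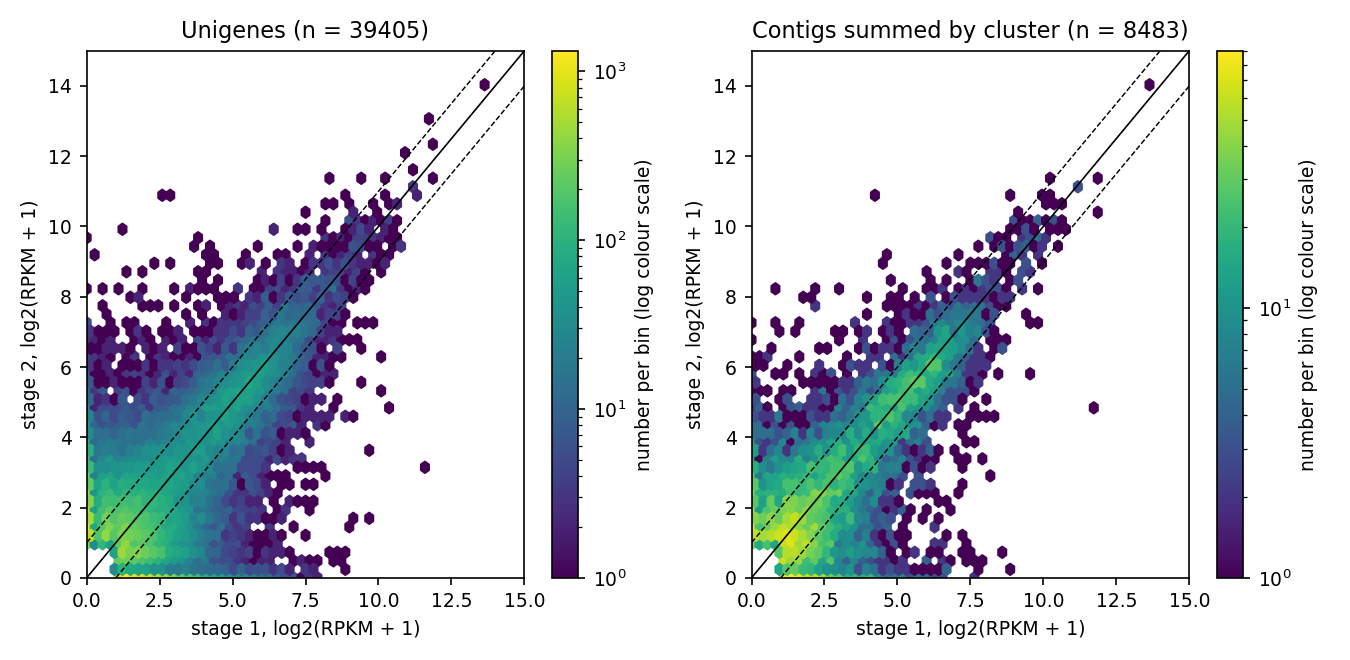
Level of each sequence in stage 2 (vertical) against stage 1 (horizontal), both as log2(RPKM + 1), for 39405 unigenes on the left and for 8483 clusters with their contigs summed on the right. Colour gives the number of sequences per bin on a log scale, the solid line marks equal levels and the dashed lines 2-fold; the unigenes spread along both axes, where a sequence is listed in 1 stage only, more than the clusters do.

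Many calls were of sequences listed in only 1 of the stages. Of the higher unigenes 5139 (50.8%) had no value in stage 1, and of the lower ones 6774 (52.6%) had no value in stage 2. A compared unigene listed in 1 stage only is always called by this ratio, so these shares follow in part from the rule. Of all 39405 compared unigenes, 27492 were listed in both stages. With at least 20 reads in the stage that lists them, the called unigenes listed in 1 stage only were 785 higher and 1110 lower. At 100 RPKM or more they were 11 and 17. The most abundant sequence listed in stage 2 only was a contig of 298 bases at 741 RPKM (1271 reads), which was at least 424-fold higher in stage 2 by the limit that 0 reads allow (3 reads in stage 1). The most abundant one listed in stage 1 only was a single unigene of 393 bases at 251 RPKM (568 reads), at least 189-fold lower in stage 2 by the same limit. It stood at 195 RPKM in stage 3 and was listed at 0 in stage 4, stage 5 and the gametophyte. The stage 2 contig was at 0 in stage 3 and the gametophyte and at 148 and 127 RPKM in stages 4 and 5.

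The share of unigenes called depended on their level and length. By mean level over both stages, 61.5% were called from 0.5 to 2 RPKM, 63.8% from 2 to 10 RPKM, 45.5% from 10 to 50 RPKM, 34.9% from 50 to 200 RPKM and 37.7% at 200 RPKM or more. In the last class the direction was the other way round, with 109 of 456 unigenes higher (23.9%) and 63 lower (13.8%). By length, 69.0% of unigenes from 200 to under 300 bases were called, and 43.4% of those of 2000 bases or more. The median length was 418 bases for higher, 390 bases for lower and 616 bases for unigenes within 2-fold. Short and low unigenes rest on few reads, and the part of counting error in these shares was not tested beyond the intervals given.

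At the upper end of expression, 381 higher unigenes reached 100 RPKM in stage 2, and 376 lower ones reached it in stage 1. The most abundant higher unigene was a single one of 789 bases, at 8201 RPKM in stage 2 and 3407 RPKM in stage 1. Its reads were 2.41-fold higher, with a 95% counting interval from 2.36 to 2.45. It stood at 8287, 2933 and 1434 RPKM in stages 3, 4 and 5 and at 21908 RPKM in the gametophyte, so that its highest level lay outside the capsule. The second, of 1799 bases, was at 4178 RPKM in stage 2 and 1850 RPKM in stage 1, and stage 2 was its highest level among the 6 libraries. It was lowest in the gametophyte, at 41.2 RPKM. The steepest difference among the 10 most abundant higher unigenes was that of a contig of 2186 bases. It stood at 1755 RPKM in stage 2 and 4.93 RPKM in stage 1, a read ratio of 356 with a 95% counting interval from 278 to 464, and at 25.9, 1661 and 108 RPKM in stages 3, 4 and 5. A single unigene of 1438 bases followed, at 1941 RPKM in stage 2 and 6.41 RPKM in stage 1, with 26.6, 1389 and 512 RPKM in stages 3, 4 and 5. Both sequences were thus high in stages 2 and 4, intermediate in stage 5 and low in stages 1 and 3.

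The most abundant lower unigene was a contig of 4680 bases. It stood at 7.99 RPKM in stage 2 (215 reads) and 3209 RPKM in stage 1 (86376 reads), and its reads were 402-fold lower in stage 2 (95% counting interval from 351 to 461). Stages 3 and 4 held 4.02 and 11.1 RPKM, stage 5 held 292 RPKM and the gametophyte 1.85 RPKM, so that it was high in stage 1 and, at a lower level, in stage 5. Its cluster as a whole was at 29.9 RPKM in stage 2 and 3217 RPKM in stage 1. A single unigene of 3128 bases had a like profile with its highest level in stage 5. It had 36 reads in stage 2 and 15107 reads in stage 1 (420-fold lower, 95% counting interval from 303 to 599), which in stage 1 is 840 RPKM, and it stood at 32.4 and 2795 RPKM in stages 4 and 5. Another, of 292 bases, differed by 44.1-fold in the same direction but was high elsewhere. It was at 27.4 RPKM in stage 2 and 1207 RPKM in stage 1, and at 1130, 67.1 and 13.2 RPKM in stages 3, 4 and 5, while the gametophyte had 556 RPKM.

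These steep differences among abundant unigenes were sorted by cut-offs on their level in the other stages. Of the lower unigenes, 77 had at least 100 RPKM in stage 1 and under 10 RPKM in stage 2. In stage 3, 26 of the 77 were again at 100 RPKM or more, another 26 were under 10 RPKM and the rest lay between. The 26 that were under 10 RPKM in stage 3 had median levels of 170, 0.610, 1.37, 2.20 and 30.1 RPKM in stages 1 to 5 and 0 RPKM in the gametophyte. In stage 5, 7 of them reached 100 RPKM, 13 lay between 10 and 100 RPKM and 6 lay under 10 RPKM. The levels of these 26 in stages 1 to 3 follow from the way they were chosen. In the gametophyte 25 of the 26 were under 10 RPKM. Of all 376 lower unigenes that reached 100 RPKM in stage 1, 89 (23.7%) were under 10 RPKM in the gametophyte and 44 (11.7%) in stage 5. Of the higher unigenes, 64 had at least 100 RPKM in stage 2 and under 10 RPKM in stage 1. Their median levels were 2.06, 138, 4.49, 115 and 64.3 RPKM in stages 1 to 5 and 6.42 RPKM in the gametophyte. Those of stages 1 and 2 follow from the choice. In stage 3, 44 of the 64 were under 10 RPKM, in stage 4 only 1 was, and in stage 5 there were 3. Of all 381 higher unigenes that reached 100 RPKM in stage 2, 47 (12.3%) were under 10 RPKM in stage 3. In stages 4 and 5 these were 4 (1.05%) each.

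Summing the contigs of a cluster lowered the share of calls. Single unigenes, which belong to no cluster, were higher in 7209 of 28299 cases (25.5%) and lower in 9497 (33.6%), or 59.0% in either direction. Contigs of clusters were higher in 2901 of 11106 cases (26.1%) and lower in 3384 (30.5%), or 56.6% in all. After summing, 1715 of 8483 clusters with at least 1 RPKM in either stage were higher (20.2%) and 2129 were lower (25.1%), so that 45.3% were called. By the counting interval of their summed reads, 1033 clusters were higher (12.2%) and 1286 lower (15.2%). The median log2 ratio of the clusters was −0.11, and it was 0.01 after TMM scaling. That scaling left 1910 clusters higher and 1975 lower, so that the excess of lower clusters depended on the scaling. Of the 8483 clusters, 5847 had a single contig at 1 RPKM or more, so that contigs could be set against each other only in the 2365 clusters with at least 2 such contigs. Among these 2365, 433 were higher by their sum (18.3%) and 557 lower (23.6%), which is 41.9% in either direction. A sum is at least as high as each of its contigs, and unigenes from a mean of 10 RPKM upwards were called less often. The part of level in the smaller share was not tested.

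**Figure D2:**
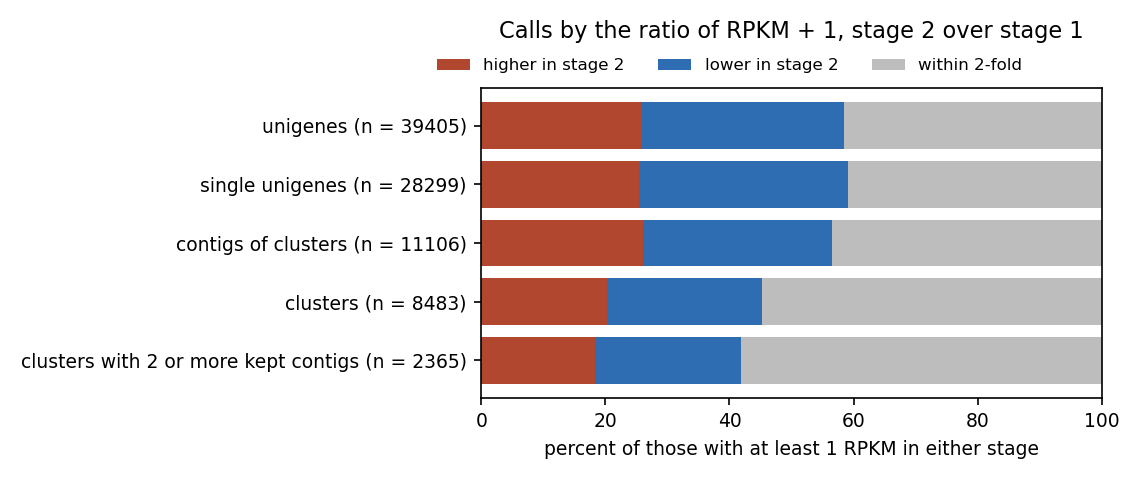
Percent of sequences higher (red), lower (blue) or within 2-fold (grey) in stage 2 relative to stage 1, by the ratio of RPKM + 1, for unigenes and for contigs summed by cluster, with the number compared beside each bar. The called share is 58.3% for unigenes, 45.3% for clusters and 41.9% for clusters with at least 2 contigs at 1 RPKM or more. The sets differ in their members, since the unigenes include the single ones. Of the 5259 contigs in the last set of clusters, 3268 were called.

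In these 2365 clusters, 3268 of 5259 contigs were called, and the cluster as a whole often did not follow them. The sum stayed within 2-fold for 1514 of the 3268 (46.3%); contigs of a cluster share its sum and are not independent. The sum moved the same way for 1532 (46.9%) and more than 2-fold the other way for 222 (6.79%). Of the 1514, 1000 lay in clusters where another contig was called in the opposite direction, and 514 lay beside contigs that were not called or were called in the same direction. The figures were close for both directions, with 48.2% of 1526 higher contigs and 44.7% of 1742 lower contigs in clusters whose sum stayed within 2-fold.

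Opposite calls within a cluster were frequent. At least 1 contig was higher and another lower in 679 clusters (28.7%), and in 466 of them (19.7% of the 2365) the sum stayed within 2-fold; these 466 are called contig switches here. The switch share depended on the setting. It was 5.8% of the same clusters with a pseudocount of 5 and 6.7% of 1245 clusters without sequences unlisted in either stage. With no filter it was 8.7% of 5333 clusters, where the 466 switches are set against more clusters. Of the 2365 clusters it was 8.5% with a ratio of 4, 11.6% by the counting interval and 17.5% with summed reads. Some settings left it near 19.7%. These were 20.7% with a pseudocount of 0.1, 20.9% of 742 clusters with a filter of 5 RPKM, 20.3% of 1108 with at least 20 reads and 19.6% of 2421 after TMM scaling. Of the other opposed clusters, 103 were higher and 110 lower by their sum. All contigs at 1 RPKM or more were higher in 176 clusters (7.44%) and lower in 223 (9.43%). Contigs were called in a single direction, with the sum within 2-fold, in 491 clusters (20.8%), and no contig was called in 431 (18.2%). In the 1986 clusters with exactly 2 such contigs, 1 was higher and the other lower in 529 (26.6%), both were higher in 161 (8.11%) and both were lower in 201 (10.1%). In another 320 clusters 1 contig was higher and the other within 2-fold, in 395 1 was lower and the other within 2-fold, and in 380 both were within 2-fold.

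**Figure D3:**
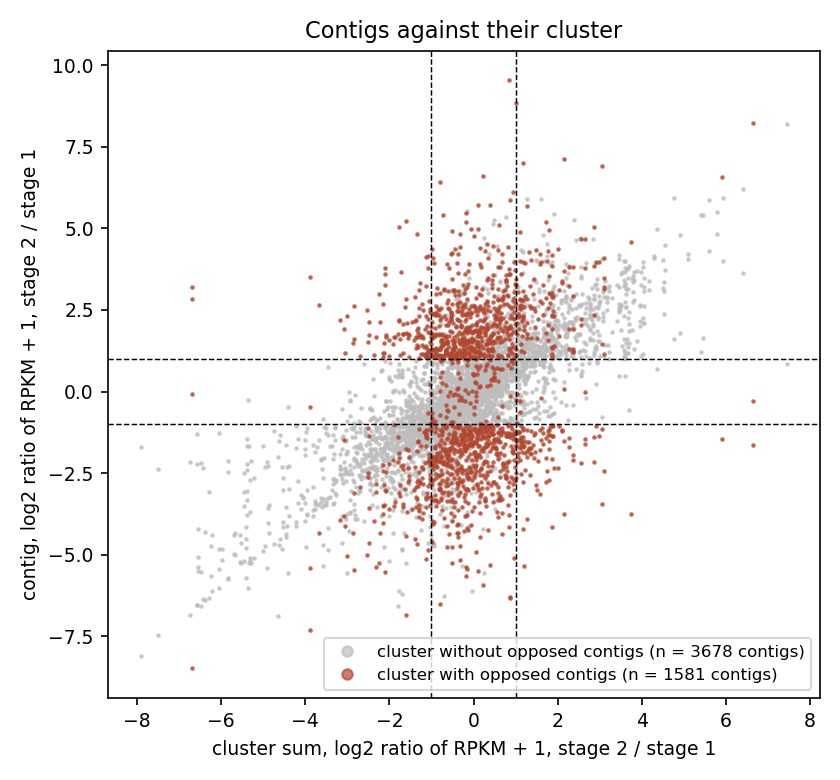
Log2 ratio of RPKM + 1 of each contig, stage 2 over stage 1 (vertical), against that of the sum of its cluster (horizontal), for 5259 contigs in 2365 clusters. Dashed lines mark 2-fold; contigs of clusters with opposed calls (red) stand above and below the lines mostly where the cluster sum lies between them, and the other contigs (grey) include 514 called ones whose cluster sum stayed within 2-fold.

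In a contig switch the opposed contigs mostly made up nearly all of their cluster. In 362 of the 466 switches they were the only contigs of the cluster at 1 RPKM or more. There this share follows from the definition, which also favours a change of leader. Over the 466 switches, the contig with the largest difference upwards (the upper contig) had a median log2 ratio of 1.93, that with the largest difference downwards (the lower contig) had −2.04, and the sums had a median of −0.09 with quartiles from −0.49 to 0.36. The upper contig supplied a median of 98.2% of the cluster's RPKM in stage 2, and the lower contig all of it in stage 1 by the median. In 405 switches (86.9%) the leader changed, and the lower contig was the most abundant of its cluster in stage 1 and the upper contig in stage 2. In 200 switches (42.9%) both exchanges were complete, with the upper contig unlisted in stage 1 and the lower contig unlisted in stage 2, and in 76 both contigs were listed in both stages. The median lengths were close, at 964 bases for the upper and 990 bases for the lower contig, but many pairs were unequal. In 212 of the 466 pairs the lengths lay within 10% of each other, and in the rest they differed by more. The median summed level was low, at 5.36 RPKM in stage 2 and 5.40 RPKM in stage 1, and 71 switches had at least 20 RPKM in both stages.

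Switches were found at all levels of expression. By the lower of the summed levels of the stages, switches were 101 of 674 clusters under 2 RPKM, 244 of 979 from 2 to 10 RPKM, 96 of 474 from 10 to 50 RPKM and 25 of 238 at 50 RPKM or more. A cluster whose sum differs between the stages falls into a lower class by that difference, so the classes are not alike in the clusters that could be switches, and no trend with level is read from these counts. When both contigs had to pass the counting interval, 389 clusters (16.4% of the 2365) had opposed contigs and 274 were switches. The authors' treatment of reads that match several contigs is not stated; where such contigs are similar, their single values are uncertain to that extent.

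CL2632 was the switch with the largest opposite differences among those with a sum ratio from 0.8 to its inverse. CL2632.Contig3 (574 bases) stood at 124 RPKM in stage 2 (411 reads) and 0.303 RPKM in stage 1 (1 read), and at 0.303, 115 and 206 RPKM in stages 3, 4 and 5. Its log2 ratio was 6.59 and its read ratio 411, with a 95% counting interval from 73.3 to 16271. CL2632.Contig4 (1401 bases) stood at 0.124 RPKM in stage 2 (1 read) and 67.6 RPKM in stage 1 (545 reads), and at 49.1 RPKM in stage 3 and 0 RPKM in stages 4 and 5. Its log2 ratio was −5.93, and its reads were 545-fold lower in stage 2 (95% counting interval from 97.4 to 21568). Contig3 was thus high in stages 2, 4 and 5 and Contig4 in stages 1 and 3, with no overlap between these sets of libraries, and in the gametophyte they were at 0 and 0.187 RPKM. Another contig of the cluster, of 1752 bases, was at 6.05 RPKM in stage 2 and 40.9 RPKM in stage 1. The summed level of the cluster was 131 RPKM in stage 2 and 111 RPKM in stage 1. Since Contig3 is the shorter, the summed reads give another picture, with 473 in stage 2 and 964 in stage 1, a ratio of 0.491 (95% counting interval from 0.439 to 0.548), so that the cluster would be called lower by its reads.

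The next switches by the same order were exchanges between contigs unlisted in 1 stage. In the second the upper contig had 226 bases and the lower one 819 bases, and the summed reads again were fewer in stage 2, at 70 against 231 in stage 1, while the summed levels were 52.3 and 48.5 RPKM. The third had contigs of nearly equal length. That of 1179 bases had 294 reads in stage 2 and 0 in stage 1 and was at least 98.0-fold higher by the 3-read limit, and that of 1166 bases had 0 reads in stage 2 and 331 in stage 1 and was at least 110-fold lower. Their sum was 43.3 RPKM in stage 2 and 49.4 RPKM in stage 1, with a read ratio of 0.888 (95% counting interval from 0.756 to 1.04), so that a difference of the cluster was not detectable at this depth. The fourth, of 380 and 260 bases, had 78 and 0 reads in stage 2 and 0 and 61 reads in stage 1. The fifth had contigs of 635 and 652 bases, with 100 and 0 reads in stage 2 and 0 and 129 reads in stage 1, and a summed read ratio of 0.775 (0.591 to 1.01). The sixth, of 1754 and 1775 bases, had 206 and 0 reads in stage 2 and 0 and 261 in stage 1, with a summed ratio of 0.789 (0.654 to 0.951). From the third to the sixth, neither contig had a read in the stage, of these 2, that held the other.

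Among the most abundant switches the exchange could also involve a minor share of the cluster. The switches were ranked here by the lower of their summed levels in the stages. The first, at 751 RPKM in stage 2 and 686 RPKM in stage 1, was led throughout by a contig of 633 bases. This contig was at 744 RPKM in stage 2 and 676 RPKM in stage 1. The exchange of this cluster lay in contigs of 648 and 747 bases, at 6.98 and 0 RPKM in stage 2 and 0 and 9.54 RPKM in stage 1. The second was an exchange of leaders. A contig of 298 bases was at 741 RPKM in stage 2 and 0 RPKM in stage 1, the one listed above as the most abundant in stage 2 only, and its partner of 324 bases was at 23.1 RPKM in stage 2 and 428 RPKM in stage 1. The partner was higher still at 1086 RPKM in stage 3 and highest of all at 2633 RPKM in the gametophyte.

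Whole clusters moved together in the 176 and 223 clusters with all contigs called alike. Their summed levels had a median of 15.3 RPKM in stage 2 and 1.32 RPKM in stage 1 for the higher clusters, and of 0.663 RPKM in stage 2 and 17.1 RPKM in stage 1 for the lower ones. The counting interval of the summed reads lay beyond 2-fold in 155 of the 176 and in 205 of the 223. Much of this follows from the choice, which used the same libraries. Over all 8483 clusters the interval lay beyond 2-fold for 1033 higher and 1286 lower ones, where the ratio called 1715 and 2129.

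The higher cluster with the highest sum was CL11244, whose 4 contigs summed to 527 RPKM in stage 2 and 135 RPKM in stage 1. Its summed reads were 3.98-fold higher, with a 95% counting interval from 3.61 to 4.39. CL11244.Contig1 (286 bases) was at 229 RPKM in stage 2 and 60.2 RPKM in stage 1, with a log2 ratio of 1.91 and a read ratio of 3.81 (3.04 to 4.80). It stood at 66.3, 16.0 and 15.9 RPKM in stages 3, 4 and 5 and at 50.3 RPKM in the gametophyte, so that stage 2 was its highest library. A contig of 1014 bases was at 152 RPKM in stage 2 and 18.7 RPKM in stage 1, and one of 974 bases at 144 RPKM in stage 2 and 55.9 RPKM in stage 1. The contig of 974 bases reached 391 RPKM in the gametophyte, above its level in any capsule library. The remaining contig, of 318 bases, had 2 reads in stage 2 and 0 in stage 1, so that its call, and with it that of all 4 contigs, rests on 2 reads. The next cluster by this order, of 2 contigs, summed to 505 RPKM in stage 2 and 101 RPKM in stage 1, and was also high in stage 4, at 417 RPKM. The third was at 423 RPKM in stage 2 and 139 RPKM in stage 1, and its contigs of 2483 and 2466 bases were unequal in their part. The first was at 352 RPKM in stage 2 and 139 RPKM in stage 1, and the other at 70.6 RPKM in stage 2 and 0.212 RPKM in stage 1. In the gametophyte this cluster was at 0.105 RPKM.

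The lower cluster with the highest sum was CL134, with 2 contigs that summed to 1408 RPKM in stage 2 and 3683 RPKM in stage 1. Its summed reads were 2.61-fold lower in stage 2 (95% counting interval from 2.56 to 2.66). CL134.Contig1 (1770 bases) was at 652 RPKM in stage 2 and 1896 RPKM in stage 1, with a log2 ratio of −1.54, and its reads were 2.91-fold lower (2.83 to 2.99). It stood at 1391, 625 and 2658 RPKM in stages 3, 4 and 5 and at 766 RPKM in the gametophyte. The other contig, of 1793 bases, was at 756 RPKM in stage 2 and 1787 RPKM in stage 1 and at 2262, 1207 and 768 RPKM in stages 3, 4 and 5. Both contigs were low in stage 2 and high in stages 1 and 3, and they parted in stage 5. The second lower cluster was at 0.684 RPKM in stage 2 and 404 RPKM in stage 1 (701-fold fewer reads in stage 2, 322 to 1911), and at 0.191, 1.81 and 40.4 RPKM in stages 3, 4 and 5. The third was at 97.3 RPKM in stage 2 and 338 RPKM in stage 1, with 234, 67.1 and 258 RPKM in stages 3, 4 and 5. The fourth was at 22.4 RPKM in stage 2 and 328 RPKM in stage 1, with 57.3, 2.36 and 107 RPKM in stages 3, 4 and 5. The fifth was at 71.8 RPKM in stage 2 and 221 RPKM in stage 1, with 106, 107 and 240 RPKM in stages 3, 4 and 5. Among the clusters after CL134, stage 5 was thus the library next to stage 1 in all but the fifth, where it was above stage 1, and the cluster at 234 RPKM in stage 3 was high there too.

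**Figure D4:**
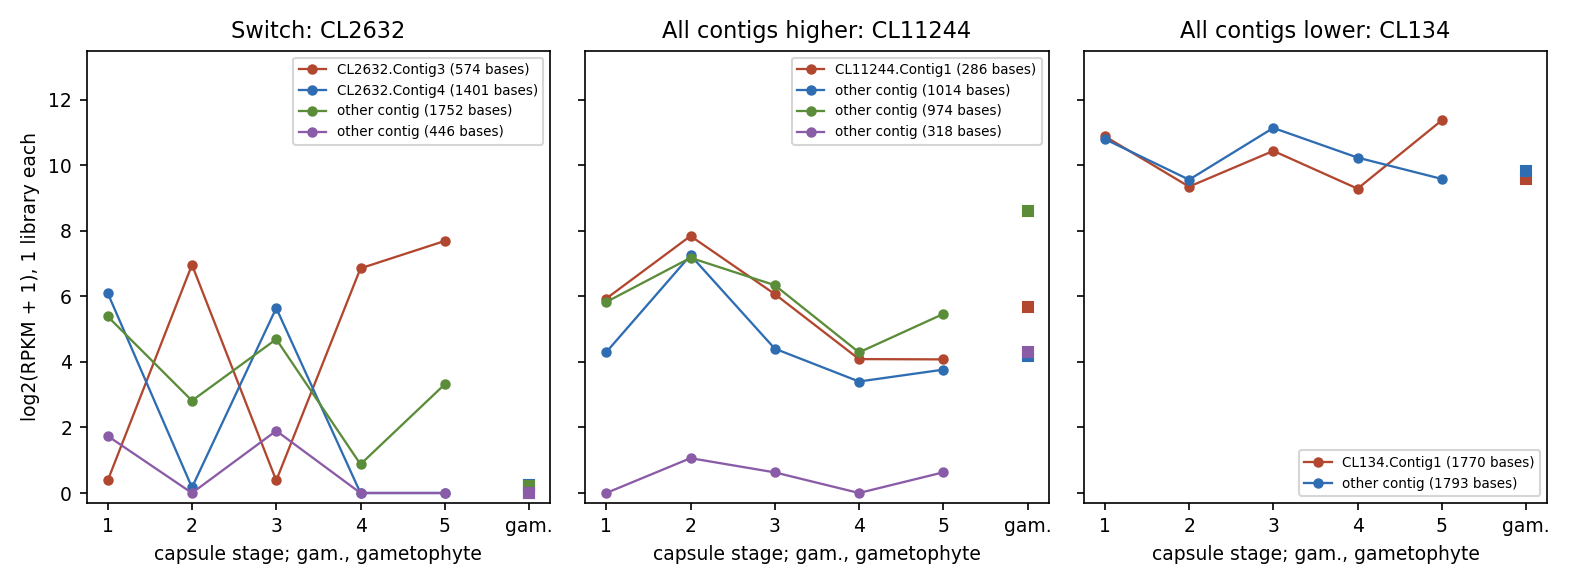
Level of every contig of the switch cluster CL2632, of CL11244, whose contigs were all higher in stage 2, and of CL134, whose contigs were all lower, as log2(RPKM + 1) in capsule stages 1 to 5 (circles, joined by lines) and the gametophyte (squares), 1 library each. CL2632.Contig3 and CL2632.Contig4 change places between libraries, whereas the contigs of CL11244 and of CL134 move together between these stages.

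The contigs of the switches were then followed in the other libraries. Their values do not enter the calls, but the division of stages 1 and 3 from stages 2, 4 and 5 in these data was known when the switches were defined, so these counts are a description. The contig higher in stage 2 was the more abundant of the pair in 20 of 457 stage 3 pairs (4.38%), 425 of 449 stage 4 pairs (94.7%), 420 of 453 stage 5 pairs (92.7%) and 40 of 391 gametophyte pairs (10.2%), each counted where either contig was listed. In most switches the more abundant contig in stages 4 and 5 was thus that of stage 2, and in stage 3 and the gametophyte that of stage 1. Whether the division follows the stage or the plants sampled cannot be told apart here. The median levels of the contig higher in stage 2 were 3.30 RPKM in stage 4 and 3.69 RPKM in stage 5, where the median of its partner was 0.

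**Figure D5:**
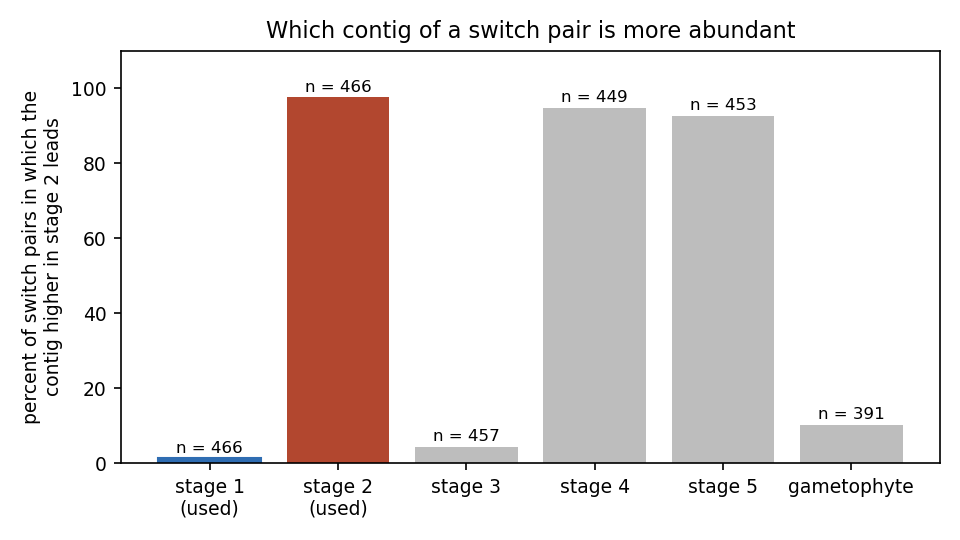
Percent of the 466 contig switches in which the contig higher in stage 2 is more abundant than the contig lower in stage 2, in each library, with the number of switches in which either contig is listed. Stages 1 and 2 were used to define the switches; stages 3, 4 and 5 stand at 4.38%, 94.7% and 92.7%, and the gametophyte at 10.2%.

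The same counts in other pairs of capsule libraries were lower where the libraries fell on the same side of this division. Stage 3 set over stage 1 had opposed contigs in 11 of 1629 clusters (0.675%) and 8 switches, and stage 4 over stage 2 had them in 16 of 1457 clusters and 12 switches. By the counting interval these were 1 opposed cluster in each pair, against 389 for stage 2 over stage 1. Both share a library with the comparison of stage 2 and stage 1. They were not without differences, since 30.9% of unigenes and 20.2% of clusters were called for stage 3 over stage 1, and 36.0% and 20.1% for stage 4 over stage 2. Stage 4 over stage 3, which shares no library with stage 2 and stage 1, had opposed contigs in 741 of 2243 clusters (33.0%) and 486 switches. The most abundant contig of a cluster was another one in 1016 of 2082 clusters between stage 2 and stage 1 (48.8%), whereas 15.5% changed leader between stages 3 and 1. The shares were 17.8% when stage 4 was set over stage 2 and 49.5% when it was set over stage 3. No test of these differences between pairs was possible with 1 library each.

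The unigenes called between stages 2 and 1 were then followed in pairs of libraries that do not include either. Over all unigenes at 1 RPKM or more, stage 4 over stage 3 had 27.3% higher and 33.6% lower, with a median log2 ratio of −0.22. Of the unigenes higher in stage 2, 8068 could be compared there, and 61.4% were higher and 7.51% lower in stage 4, with a median of 1.32. Of those lower in stage 2, 9847 could be compared, and 5.13% were higher and 69.5% lower, with a median of −1.49. For stage 5 over stage 3, 31.3% of all unigenes were higher and 27.3% lower. There 57.8% of 8222 unigenes higher in stage 2 were higher in stage 5 and 7.87% lower, and 15.3% of 10701 unigenes lower in stage 2 were higher and 51.4% lower. The unigenes within 2-fold between stages 2 and 1 had medians of −0.25 and 0.00 in these pairs. This pattern was known from these data beforehand, and both pairs share stage 3.

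The absolute levels of the 2 sets of called unigenes were opposite in stages 1 and 2 by the rule that chose them. Only the medians of the other libraries lie outside that rule, and they are a description. The higher unigenes had median levels of 0, 4.09, 0.561, 2.70 and 2.75 RPKM in stages 1 to 5. The lower unigenes had medians of 4.13, 0, 2.51, 0.134 and 0.759 RPKM. The gametophyte listed no value for 55.8% of the higher and 41.0% of the lower unigenes, against 27.9% of those within 2-fold, with medians of 0, 0.788 and 1.71 RPKM in the 3 sets. That library had fewer reads, 3821669 in total, so that 3 reads on 1 kb are 0.785 RPKM there. The called unigenes were also shorter, with medians of 418 and 390 bases against 616. An unlisted value is thus not absence, and the part of depth and length in these shares was not tested.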

How the data were processed

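The authors deposited RPKM tables, 1 per library, with total RNA extracted by TRIzol per the labels' protocols. No assembler, aligner, counting rule or definition of a cluster number was given in the sources used here. The stage 2 and stage 1 tables were joined by identifier and a dash was read as 0. Unigenes at 1 RPKM or more in either stage were compared by the ratio of RPKM + 1, and contigs again after summing by cluster number. Library totals and whole lengths from 200 to 15000 bases were recovered from the RPKM steps, within 0.9 of the last digit, for 100.0% of unigenes, and summed reads reached 99.7% of the total in stage 2 and 99.6% in stage 1. Lengths are the smallest that give whole reads and can be too small. Ratios of reads have exact conditional binomial 95% intervals (scipy 1.17.1, Python 3.11.15). Recovery and calls were also run on reads simulated from the recovered reads, lengths and totals. That run takes the recovery as given, so it cannot check it on the deposited values. Its planted changes lay only in unigenes with many reads, so it does not bear on calls from few reads. The 4 named contigs are both opposed contigs of the switch with the largest opposite differences (sum ratio from 0.8 to its inverse), and the most abundant contig of the highest cluster with all contigs higher and with all contigs lower. The comparison, its members and its rules were chosen with earlier results of these data known. A pooled sample was not analysed here. Functional gene lists were not applied, since no identifier is paired with a gene.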

Additional observations from a re-analysis of the deposited data

How the results depend on the processing

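With 1 library a stage no replicate could be left out. No paired analysis was possible because each stage has 1 library. Counts are given as unigenes higher and lower, clusters higher and lower, opposed contigs and contig switches. They were 3237 and 4169, 751 and 915, 172 and 138 with a pseudocount of 5, and 4312 and 5450, 1064 and 1276, 204 and 155 with a filter of 5 RPKM. With a ratio of 4 they were 3605 and 4910, 603 and 773, 223 and 202, and by the counting interval 3930 and 5013, 1033 and 1286, 389 and 274. Without sequences that have a dash in either stage, unigenes were 4971 and 6107, lower clusters 1392, opposed contigs 110 and switches 84, so that most switches rest on a contig listed in 1 stage only. With at least 20 reads, a setting added after seeing the data, unigenes were 3777 and 4598, opposed contigs 305 and switches 225. These settings test fewer sequences or ask for more by construction. A pseudocount of 0.1 and TMM kept these 6 counts within 1.5 times. No filter and the median ratio left them unchanged, which says nothing of their stability. A 2-fold ratio of RPKM + 1 already needs 1 RPKM in the higher stage, so dropping the filter could not change them. The median ratio was 0.9999, which is practically no scaling. Summed reads (added after seeing the data) kept the counts of clusters and switches within 1.5 times, with 415 switches. The 4 named contigs held their direction with a pseudocount of 0.1 or 5, TMM and the median ratio, the settings run for them. Switches were 8.5% of clusters with a ratio of 4 and 11.6% by the interval. The share of called contigs whose cluster sum stayed within the fold was 42.1% with a pseudocount of 0.1, 41.3% with no filter, 49.3% with 5 RPKM, 40.3% without dashes, 63.7% with a ratio of 4, 44.1% by the interval, 48.6% with 20 reads and 44.2% with summed reads. Another leading contig was found in 42.3% of clusters by reads and 34.2% with sums of 5 RPKM. The median log2 ratio was −0.27 with a pseudocount of 0.1, −0.12 with 5, −0.18 with 5 RPKM, −0.10 after TMM and −0.11 without dashes. That of clusters was −0.06 with a pseudocount of 5, −0.07 without dashes and, with its sign turned, 0.01 after TMM; the cause was not tested.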
